A study of Mus musculus with 4 samples.

Results

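The genes described here are 45 mouse genes of the lysosome, chosen by name: 8 membrane proteins, 12 cathepsins and other peptidases, 8 glycosidases, 5 sulfatases, 6 lipid hydrolases and their activators, 4 genes of the proton pump, and the transcription factors Tfeb and Tfe3. Among probe sets that carry its symbol alone, each gene took the one brightest on average (mean log2 of the 4 arrays), and 44 of the 45 were found in this way among 18193 genes. Cd63, a membrane tetraspanin, had no probe set with that symbol alone in the table used and was not analysed here. Cells from mouse bone marrow gave 4 RNA samples, each read on 1 Affymetrix array. The cells had been isolated as LSK cells, which lack lineage markers, carry Sca-1 and c-kit, and include the blood stem cells. The β-catenin day 3 sample was taken after 3 days of transduction with a β-catenin retrovirus. The DKmix day 50 and DKmix day 300 samples came from LSK cells with β-catenin that had been cultured for 50 and 300 days. The eGFP day 3 sample had received a retrovirus for enhanced green fluorescent protein in place of β-catenin. All 4 cultures were fed serum with IL-3, SCF, Flt3 and IL-11. The mouse strain and age, the viral promoter, the form of β-catenin and whether both DKmix samples came from 1 culture are not stated in the labels.

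The lysosome is the acid compartment in which cells break down proteins, sugars, lipids and swallowed material. Its enzymes work at low pH, which a membrane proton pump, the V-ATPase, maintains, and its membrane is lined with heavily glycosylated proteins. TFEB and TFE3, with their relative MITF, bind E-box sequences in promoters of many lysosomal genes, and mast cells store their mediators in secretory lysosomes.

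Each group held 1 array, so every difference below is between single arrays, without replicates, test or p-value. Values are intensities that the submitters had computed with MAS5 on a linear scale, with a mean of 150 on each array after trimming 2% of probe sets at either end. The pooled median intensity, 48.3, served as a floor to which dimmer values were raised before ratios were formed. Where 1 of the arrays compared was under the floor, the ratio is a bound and carries the words "at least"; where both were, no ratio is given. Higher and lower mean a difference of 2-fold or more. Of the 44 genes, 43 were above the floor on at least 1 array and 37 on all 4, and Ctsk, the collagen-degrading cathepsin of osteoclasts, was under it on all 4. Over the comparisons, the log2 ratios of the 2 brightest probe sets of a gene gave an SD of 0.638 to 0.917 per probe set. This is the SD of their difference over the square root of 2, an error that does not include the spread between cultures.

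The arrays differed in RNA quality and in cell type markers as well as by group. For the Gapdh control, signal at the 3′ end over that at the 5′ end was 1.18 on β-catenin day 3, 4.96 at DKmix day 50 and 1.06 at DKmix day 300, against 4.14 on eGFP day 3. For Actb the same measure was 1.32 on β-catenin day 3, 3.41 at DKmix day 50 and 1.20 at DKmix day 300, against 1.83 on eGFP day 3. The DKmix day 300 and β-catenin day 3 arrays were close by both controls. DKmix day 50 and eGFP day 3 were the higher 2 by both controls and close to each other by Gapdh, while by Actb eGFP day 3 lay nearer the low arrays than DKmix day 50. Kit, which encodes the c-kit of the LSK label, gave 82.9 on β-catenin day 3 and 55.8 on eGFP day 3, little above the floor. It gave 3459.5 at DKmix day 50 and 1263 at DKmix day 300. Of 10 stem and progenitor markers, Kit among them, 9 were above the floor on β-catenin day 3 and 5 on eGFP day 3. At DKmix day 50 it was 9, and at DKmix day 300 it was 5. Of 12 neutrophil markers, 10 were above the floor on β-catenin day 3, 3 at DKmix day 50 and 1 at DKmix day 300, against 12 on eGFP day 3. Summed over 12 mast cell markers, the intensity was 4719 on β-catenin day 3 and 1027 on eGFP day 3. It was 178448 at DKmix day 50 and 81824 at DKmix day 300. Above the floor were 8 markers on β-catenin day 3 and 10 on each DKmix array, against 9 on eGFP day 3. Against β-catenin day 3, 10 of 11 measured were higher at DKmix day 50 (90.9%, against 16.1% of all genes). At DKmix day 300 it was 10 of 10 (100%, against 14%). Hdc, the 1 lower at day 50, gave 23.0 there, against 234 on β-catenin day 3. The part of such cells in the lysosomal values was not tested. In such bulk samples fewer cells of a type and less RNA per cell cannot be told apart.

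More lysosomal genes were higher than lower at DKmix day 300. Against β-catenin day 3, 18 of 43 measured genes were at least 2-fold higher (41.9%, against 14% of all measured genes) and 2 were lower (4.65%, against 14.4%), with a median log2 ratio of 0.76, where the median of all genes was -0.08. At DKmix day 50 against β-catenin day 3 the genes split, with 13 of 43 higher (30.2%, against 16.1% of all genes) and 10 lower (23.3%, against 15.7%) and a median of 0.27 beside 0.07 for all genes. Between the DKmix arrays, 19 of 42 were higher at day 300 than at day 50 (45.2%, against 15.1%) and 5 lower (11.9%, against 15.9%), with a median of 0.92 beside -0.14. In either direction, 28.5% of all measured genes passed 2-fold at DKmix day 300 and 31.8% at DKmix day 50 against β-catenin day 3, 30.9% between the DKmix arrays and 19.6% at day 3. The 3 comparisons with a DKmix array share arrays, so they do not support each other. Between β-catenin and eGFP at day 3 the counts lay nearer those of all genes, with 6 of 43 higher (14%, against 10.2%) and 4 lower (9.3%, against 9.42%) and a median of -0.13 beside -0.01.

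**Figure D1:**
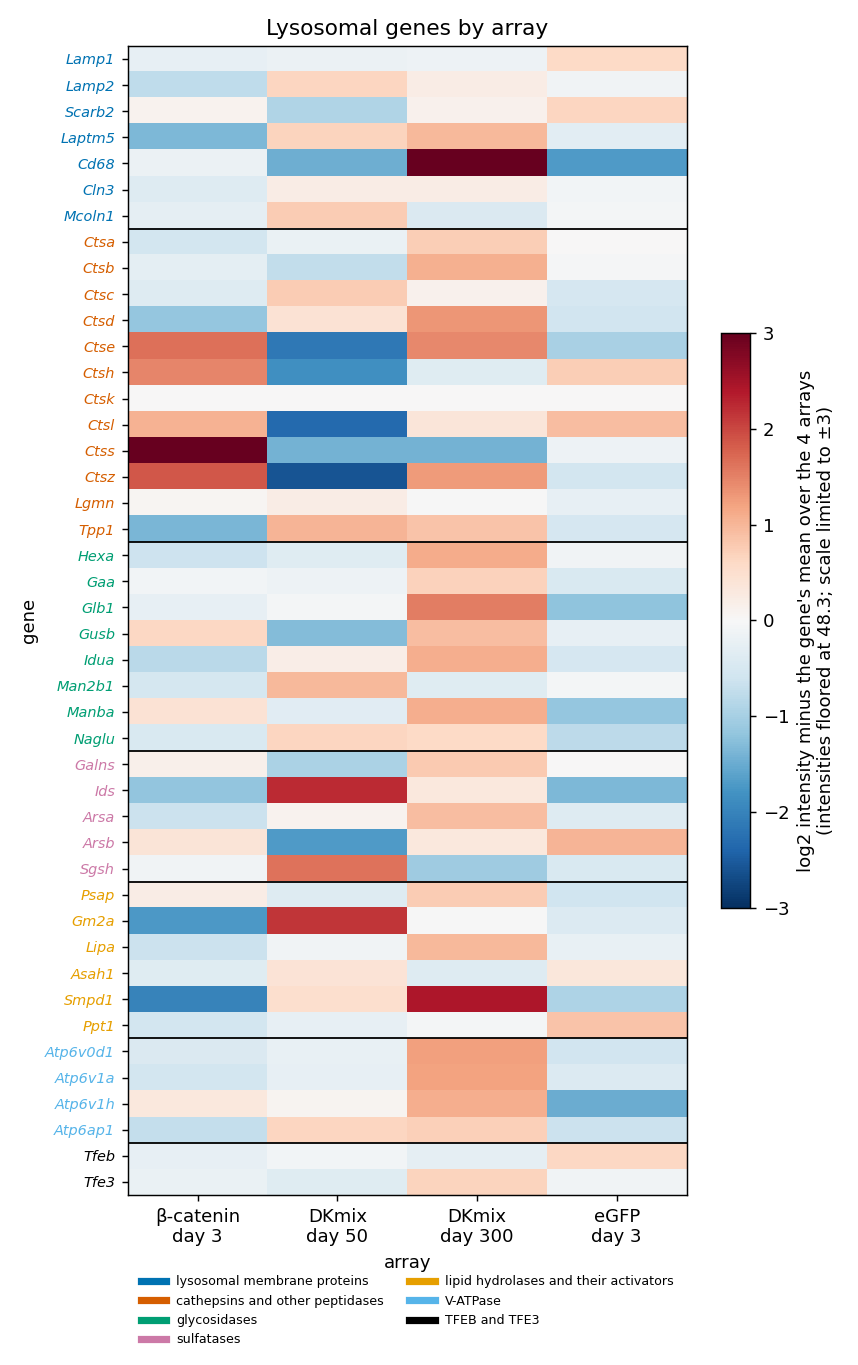
Each row is 1 of the 44 lysosomal genes and each column 1 array; the colour is the log2 intensity minus the gene's mean over the 4 arrays, with intensities floored at 48.3 and the scale limited to ±3, and the label colours mark the gene's role. The DKmix day 300 column is mostly red, and the peptidases Ctse, Ctsh, Ctsl and Ctsz are blue at DKmix day 50.

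These counts rest on equal overall intensity. The hybridisation controls, bacterial transcripts added before hybridisation, exceeded their β-catenin day 3 level by 0.94 (log2, mean) at DKmix day 50 and by 1.04 at DKmix day 300. With the arrays scaled on these controls the median of all genes moved to -0.73 at DKmix day 50 and -0.90 at DKmix day 300 against β-catenin day 3. The counts were then 5 higher and 16 lower at day 50 and 6 higher and 11 lower at day 300. The lysosomal median at day 300 was -0.28 on that scale, 0.62 above that of all genes. For β-catenin over eGFP at day 3 this scale gave 10 higher and 1 lower. Directions given below for single genes are on the scale of equal overall intensity.

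Of the 7 membrane proteins measured, 2 were higher and 0 lower at DKmix day 300 than on β-catenin day 3, where 14% of all genes were higher and 14.4% lower, and with 7 genes such a count is near those shares. Cd68, a heavily glycosylated lysosomal protein used as a macrophage marker, gave 469 on β-catenin day 3, 192 at DKmix day 50 and 5407 at DKmix day 300, against 163 on eGFP day 3. The DKmix day 300 value stood alone, 11.5-fold above β-catenin day 3 and 28.2-fold above DKmix day 50, while DKmix day 50 was 2.45-fold below β-catenin day 3. Of the 11 matched macrophage and monocyte markers, 4 were above the floor on DKmix day 300 and 6 on β-catenin day 3, and the 11 summed to 407 on DKmix day 300, against 4183 on β-catenin day 3. Of the 9 measured between these arrays, 1 was higher and 6 were lower on DKmix day 300. The higher one was Fcgr1, an Fc receptor, at 101 on DKmix day 300, against 33.5 on β-catenin day 3 (at least 2.09-fold). Mrc1, the mannose receptor, gave 66.6 against 4.0 on the same arrays, a bound of 1.38-fold. Csf1r, the macrophage growth factor receptor, gave 39.2 on DKmix day 300, against 2000 on β-catenin day 3. Their part in the Cd68 value was not tested.

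Laptm5, a lysosomal membrane protein of blood cells, gave 2000 on β-catenin day 3, 8121 at DKmix day 50 and 10041 at DKmix day 300, against 4080 on eGFP day 3. Both DKmix values lay above both day 3 values, and DKmix day 300 was 5.02-fold above β-catenin day 3. Lamp2, which lines the lysosome and serves chaperone-mediated autophagy, gave 364 on β-catenin day 3, 952 at DKmix day 50 and 714 at DKmix day 300, against 573 on eGFP day 3. It was 2.62-fold higher at DKmix day 50 than on β-catenin day 3, with the DKmix values close above that of eGFP. Its partner Lamp1 was not 2-fold apart between any of these arrays, at 2043 on β-catenin day 3, 2160.2 at DKmix day 50 and 2193 at DKmix day 300, against 3665 on eGFP day 3.

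Scarb2, the receptor that carries β-glucocerebrosidase to lysosomes, gave 435 on β-catenin day 3, 216 at DKmix day 50 and 443 at DKmix day 300, against 631 on eGFP day 3. Only the DKmix day 50 value was low, 2.01-fold below β-catenin day 3. Mcoln1, a calcium channel of the lysosome membrane, was high on that array alone, with 213 on β-catenin day 3, 434 at DKmix day 50 and 192 at DKmix day 300, against 248 on eGFP day 3. Cln3, a membrane protein lost in a childhood neuronal storage disease, was at 121 to 184 on the 4 arrays and passed 2-fold in none of the comparisons.

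The peptidases went in both directions at DKmix day 50. Against β-catenin day 3, 5 of 11 measured peptidases were lower there (45.5%, against 15.7% of all genes), namely Ctse, Ctsh, Ctsl, Ctss and Ctsz. The higher ones were 3 (27.3%, against 16.1%), namely Ctsc, Ctsd and Tpp1, and with 11 genes that count is near the share of all genes. Ctsz, a carboxypeptidase, gave 4136 on β-catenin day 3, 190.4 at DKmix day 50 and 2789 at DKmix day 300, against 783 on eGFP day 3. DKmix day 50 was 21.7-fold below β-catenin day 3, and DKmix day 300 was 14.6-fold above DKmix day 50. Ctsl, a broad endopeptidase, gave 498 on β-catenin day 3, 10.2 at DKmix day 50 and 314 at DKmix day 300, against 465 on eGFP day 3. The DKmix day 50 array alone was under the floor, at least 10.3-fold below β-catenin day 3.

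Ctss, the cathepsin that trims the invariant chain of class II molecules, gave 1012 on β-catenin day 3, 13.2 at DKmix day 50 and 36.2 at DKmix day 300, against 115 on eGFP day 3. Both DKmix arrays were under the floor, at least 21.0-fold below β-catenin day 3, and β-catenin day 3 was itself 8.78-fold above eGFP day 3. Ctsh, an aminopeptidase, gave 521 on β-catenin day 3, 52.1 at DKmix day 50 and 146 at DKmix day 300, against 315 on eGFP day 3. Both DKmix values lay below both day 3 values, by 10.0-fold at day 50 and 3.58-fold at day 300 relative to β-catenin day 3. The 9 markers of dendritic cells and class II summed to 22781 on β-catenin day 3 and 4772 on eGFP day 3. On the DKmix arrays they summed to 355 at day 50 and 581 at day 300. Above the floor were 8 on β-catenin day 3, 4 at DKmix day 50 and 3 at DKmix day 300, against 6 on eGFP day 3. Between β-catenin and eGFP at day 3, 6 of 8 measured were higher (75%, against 10.2% of all genes). Itgax was lower there, at 139.5 against 743. Ciita passed 2-fold in none of the comparisons, and Flt3 was under the floor on all 4 arrays. Of the class II chain genes, H2-Aa and H2-Eb1 were under the floor on both DKmix arrays, while H2-Ab1 was above it, at 126 at day 50 and 242 at day 300, against 1903 on β-catenin day 3. Cd74, the invariant chain, was also above it, at 58.8 at DKmix day 50 and 99.1 at DKmix day 300, against 7679.5 on β-catenin day 3. The part of these cells in the Ctss and Ctsh values was not tested.

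Ctse, an aspartic endopeptidase, gave 998 on β-catenin day 3, 71.5 at DKmix day 50 and 865 at DKmix day 300, against 162 on eGFP day 3. By this probe set DKmix day 50 was 14.0-fold below β-catenin day 3, but a second probe set of Ctse gave 203 on β-catenin day 3, 361 at DKmix day 50 and 197 at DKmix day 300, against 67.0 on eGFP day 3. The 2 probe sets thus disagree on the direction at DKmix day 50, and both put β-catenin day 3 above eGFP day 3, by 6.14-fold and 3.03-fold.

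**Figure D2:**
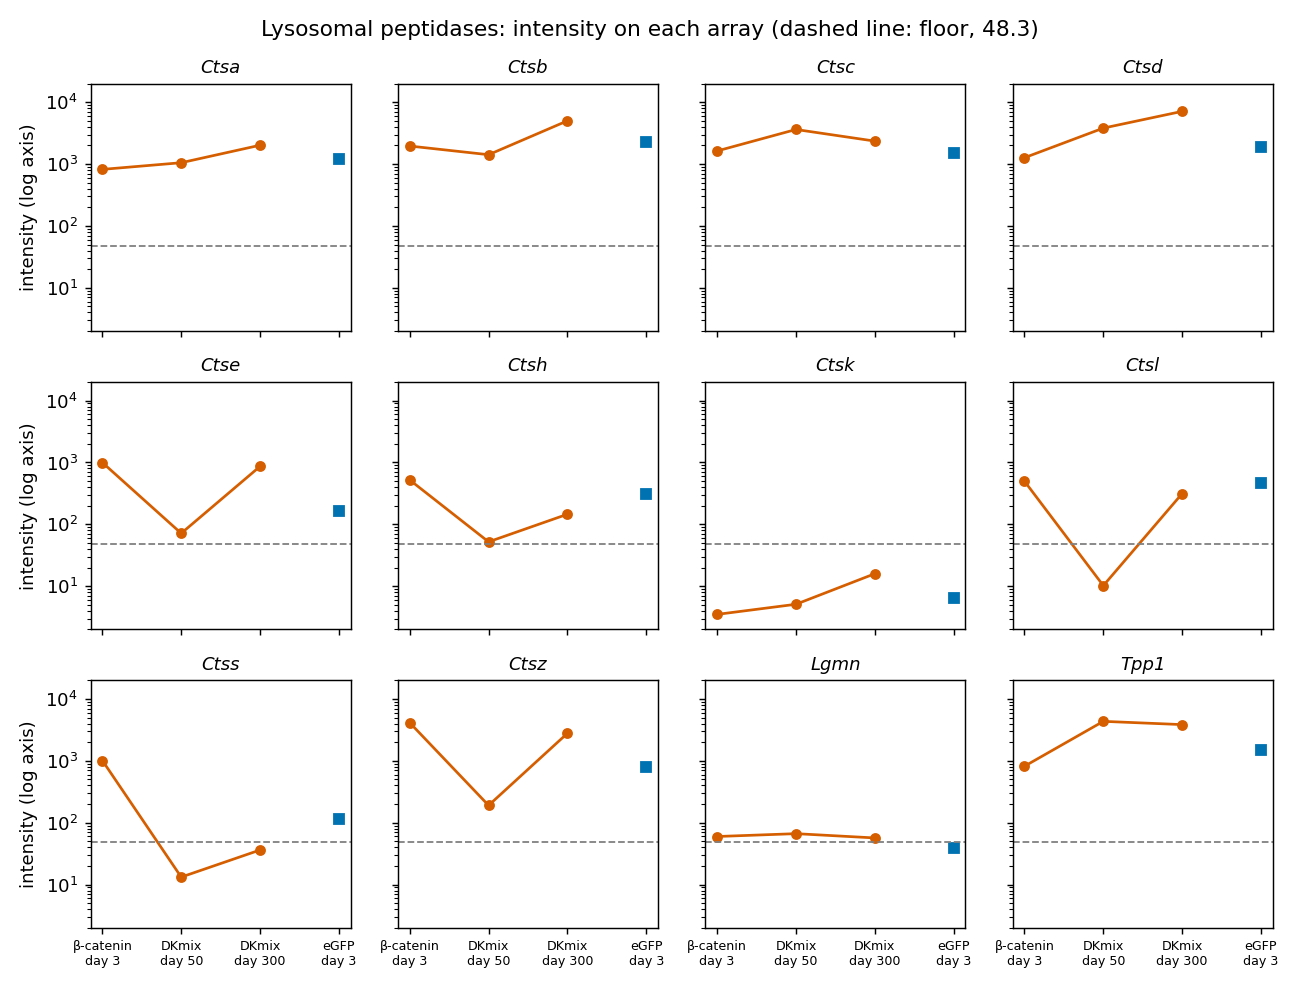
Intensity of the 12 peptidases on a log axis; circles joined by a line are the β-catenin-transduced cells at day 3, DKmix day 50 and DKmix day 300, the square is eGFP day 3, and the dashed line is the floor of 48.3. Ctse, Ctsl and Ctsz dip at DKmix day 50, Ctss is under the floor on both DKmix arrays, and Ctsd and Tpp1 are above both day 3 arrays at both DKmix times.

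Ctsd, the main aspartic endopeptidase of lysosomes, gave 1269 on β-catenin day 3, 3821 at DKmix day 50 and 7125 at DKmix day 300, against 1903 on eGFP day 3. Tpp1, a tripeptidyl peptidase, gave 818 on β-catenin day 3, 4351 at DKmix day 50 and 3854 at DKmix day 300, against 1507 on eGFP day 3. Both genes were higher on each DKmix array than on either day 3 array by at least 2-fold, and DKmix day 300 was 5.61-fold above β-catenin day 3 for Ctsd and 4.71-fold for Tpp1. Ctsc, which activates serine proteases of granules, gave 1631 on β-catenin day 3, 3628 at DKmix day 50 and 2356 at DKmix day 300, against 1520.1 on eGFP day 3. Its DKmix values were the higher 2 of the 4, though only day 50 passed 2-fold against β-catenin day 3 (2.22-fold).

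Ctsb, an endopeptidase and carboxypeptidase, gave 1959 on β-catenin day 3, 1419 at DKmix day 50 and 5012 at DKmix day 300, against 2315 on eGFP day 3. Ctsa, the protective protein that stabilises β-galactosidase and sialidase, gave 822 on β-catenin day 3, 1053 at DKmix day 50 and 2020 at DKmix day 300, against 1224 on eGFP day 3. For both, DKmix day 300 was the highest array, 2.56-fold above β-catenin day 3 for Ctsb and 2.46-fold for Ctsa. The mean over both Ctsa probe sets turned that direction (log2 ratio -0.37), and the second of them was under the floor on all 4 arrays. Lgmn, an asparaginyl endopeptidase, was close to the floor throughout, from 39.0 to 66.5.

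Among the 8 glycosidases, 4 were higher at DKmix day 300 than on β-catenin day 3 (50%, against 14% of all genes) and 0 were lower. Glb1, the lysosomal β-galactosidase, gave 691 on β-catenin day 3, 783 at DKmix day 50 and 2388 at DKmix day 300, against 354 on eGFP day 3. Hexa, the α subunit of β-hexosaminidase, gave 1352 on β-catenin day 3, 1629 at DKmix day 50 and 4535 at DKmix day 300, against 1934 on eGFP day 3. DKmix day 300 stood above the other 3 arrays for both genes, 3.45-fold and 3.35-fold above β-catenin day 3. Naglu, which removes N-acetylglucosamine from heparan sulfate, gave 117 on β-catenin day 3, 253 at DKmix day 50 and 244 at DKmix day 300, against 93.0 on eGFP day 3. Its 2 DKmix values lay at least 2.07-fold above both day 3 values. Idua, which acts on the same chains, was at least 3.72-fold higher at DKmix day 300 than on β-catenin day 3, at 179.8 against 16.3. A second Idua probe set gave 105.1 against 60.5 on the same arrays, which is 1.74-fold and under the 2-fold threshold.

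Gusb, β-glucuronidase, gave 1611 on β-catenin day 3, 429.9 at DKmix day 50 and 1992 at DKmix day 300, against 888 on eGFP day 3. DKmix day 50 was the lowest, 3.75-fold below β-catenin day 3. Man2b1, the lysosomal α-mannosidase, gave 2230.3 on β-catenin day 3, 6279 at DKmix day 50 and 2480.1 at DKmix day 300, against 3065 on eGFP day 3. Its DKmix day 50 value stood alone, 2.82-fold above β-catenin day 3, and DKmix day 300 was 2.53-fold below it. Manba, the β-mannosidase, gave 408 on β-catenin day 3, 238 at DKmix day 50 and 646 at DKmix day 300, against 135 on eGFP day 3, and was 3.01-fold higher on β-catenin day 3 than on eGFP day 3. Gaa, which degrades glycogen, ranged from 366 to 811 by the probe set used and passed 2-fold in none of the comparisons. A second Gaa probe set gave 460 on β-catenin day 3, 81.4 at DKmix day 50 and 858 at DKmix day 300, against 213 on eGFP day 3. By it DKmix day 50 was 5.65-fold below β-catenin day 3, and β-catenin day 3 was 2.16-fold above eGFP day 3.

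Of the 5 sulfatases, Ids, which removes sulfate from heparan and dermatan sulfate, had the highest ratio of DKmix day 50 over β-catenin day 3. It gave 169 on β-catenin day 3, 1840 at DKmix day 50 and 479 at DKmix day 300, against 151 on eGFP day 3. By this probe set both DKmix arrays lay above both day 3 arrays, by 10.9-fold at day 50 and 2.83-fold at day 300 relative to β-catenin day 3. The next brightest Ids probe set gave 71.1 on β-catenin day 3, 177.9 at DKmix day 50 and 81.9 at DKmix day 300. On eGFP day 3 it gave 22.3. By it DKmix day 50 was 2.5-fold above β-catenin day 3, but DKmix day 300 only 1.15-fold, under the 2-fold threshold. A dimmer Ids probe set gave 81.8 on β-catenin day 3, 145.4 at DKmix day 50 and 45.6, under the floor, at DKmix day 300. Sgsh, which removes sulfate from the glucosamine of heparan sulfate, gave 93.2 on β-catenin day 3, 312 at DKmix day 50 and 44.5 at DKmix day 300, against 74.2 on eGFP day 3. It was high on DKmix day 50 alone, with DKmix day 300 at least 6.46-fold below that array.

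Arsa, which acts on sulfatide, gave 323 on β-catenin day 3, 540.2 at DKmix day 50 and 964 at DKmix day 300, against 383 on eGFP day 3, and DKmix day 300 was 2.98-fold above β-catenin day 3. Galns, which acts on keratan sulfate, gave 234 on β-catenin day 3, 109 at DKmix day 50 and 362 at DKmix day 300, against 211 on eGFP day 3. Arsb, which acts on dermatan sulfate, gave 206 on β-catenin day 3, 7.6 at DKmix day 50 and 195 at DKmix day 300, against 321 on eGFP day 3. Both genes were lowest on DKmix day 50, 2.15-fold below β-catenin day 3 for Galns and at least 4.27-fold for Arsb. The next brightest Arsb probe set went the other way there, with 167 on DKmix day 50, against 58.1 on β-catenin day 3.

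The lipid hydrolases and their activators include the gene with the highest ratio of DKmix day 300 over β-catenin day 3, Smpd1, the acid sphingomyelinase. Smpd1 gave 71.4 on β-catenin day 3, 403 at DKmix day 50 and 1535 at DKmix day 300, against 151 on eGFP day 3. The DKmix arrays lay above both day 3 arrays, and DKmix day 300 was 21.5-fold above β-catenin day 3. A second, dimmer Smpd1 probe set gave 7.0 on β-catenin day 3, 78.4 at DKmix day 50 and 73.1 at DKmix day 300, against 72.9 on eGFP day 3, which puts the DKmix arrays level with eGFP and leaves only β-catenin day 3 under the floor. Gm2a, the activator that presents ganglioside GM2 to β-hexosaminidase, gave 827 on β-catenin day 3, 12040 at DKmix day 50 and 2672 at DKmix day 300, against 2031 on eGFP day 3. DKmix day 50 was 14.6-fold and DKmix day 300 3.23-fold above β-catenin day 3, where the gene was 2.46-fold lower than on eGFP day 3. The mean over the 3 Gm2a probe sets turned that day 3 direction, to a log2 ratio of 0.84.

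Lipa, the acid lipase of cholesteryl esters, gave 301 on β-catenin day 3, 441 at DKmix day 50 and 929 at DKmix day 300, against 403 on eGFP day 3. It was 3.08-fold higher on DKmix day 300 than on β-catenin day 3. Psap, the precursor of the 4 saposins that assist sphingolipid hydrolases, gave 1794 on β-catenin day 3, 1184 at DKmix day 50 and 2606 at DKmix day 300, against 1013 on eGFP day 3. Ppt1, which removes palmitate from proteins, gave 475 on β-catenin day 3, 584 at DKmix day 50 and 669 at DKmix day 300, against 1260 on eGFP day 3. By this probe set eGFP day 3 was the highest array, 2.65-fold above β-catenin day 3. A second, dimmer Ppt1 probe set gave 129 on β-catenin day 3, 241 at DKmix day 50 and 567 at DKmix day 300, against 332 on eGFP day 3. There DKmix day 300 was the highest, 4.4-fold above β-catenin day 3, and eGFP day 3 was 2.58-fold above β-catenin day 3. Asah1, the acid ceramidase, ranged from 872 to 1501 and passed 2-fold in none of the comparisons.

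Of the 4 proton pump genes, 3 were higher at DKmix day 300 than on β-catenin day 3 (75%, against 14% of all genes) and 0 were lower. Among 13 further subunits measured, 3 were higher (23.1%) and 1 lower (7.69%, against 14.4% of all genes). Atp6v1a, the catalytic subunit, gave 756 on β-catenin day 3, 927 at DKmix day 50 and 2557 at DKmix day 300, against 829.8 on eGFP day 3. Atp6v0d1, which joins the stalk to the membrane sector, gave 703 on β-catenin day 3, 808 at DKmix day 50 and 2197 at DKmix day 300, against 634 on eGFP day 3. The other 3 arrays of each gene lay close together, and DKmix day 300 was 3.38-fold above β-catenin day 3 for Atp6v1a and 3.12-fold for Atp6v0d1. A second Atp6v1a probe set gave 1221 against 767 on the same arrays, which is 1.59-fold and under the 2-fold threshold. Atp6ap1, an accessory protein of the pump, gave 803 on β-catenin day 3, 2072 at DKmix day 50 and 2158 at DKmix day 300, against 837 on eGFP day 3. Both of its DKmix values lay at least 2.48-fold above both day 3 values. Atp6v1h, a regulatory subunit, gave 507 on β-catenin day 3, 430.0 at DKmix day 50 and 859 at DKmix day 300, against 145 on eGFP day 3, with eGFP day 3 the lowest (3.48-fold below β-catenin day 3).

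Tfeb was low on all 4 arrays, at 78.0 on β-catenin day 3, 87.3 at DKmix day 50 and 77.0 at DKmix day 300, against 144 on eGFP day 3. Tfe3 gave 235 on β-catenin day 3, 209.9 at DKmix day 50 and 423 at DKmix day 300, against 247 on eGFP day 3. Neither passed 2-fold against β-catenin day 3 at either DKmix time, and Tfe3 was 2.01-fold higher on DKmix day 300 than on DKmix day 50. Their relative Mitf, a regulator of mast cells that is not among the 45 genes and is 1 of the 12 mast cell markers above, gave 139 on β-catenin day 3, 2533 at DKmix day 50 and 1706 at DKmix day 300, against 41.3 on eGFP day 3.

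The arrays also allow DKmix to be set against day 3 within like Gapdh ratios, by pairing DKmix day 300 with β-catenin day 3 and DKmix day 50 with eGFP day 3, 2 pairs that share no array. By Actb the second pair was less alike, at 3.41 at DKmix day 50 and 1.83 on eGFP day 3. This pairing was chosen after the control ratios were seen. In both pairs 8 of 43 genes were at least 2-fold higher in DKmix (18.6%, against 5.47% of all genes measured in both), and 2 were lower (4.65%, against 5.33%). The 8 were Ctsd, Tpp1, Glb1, Naglu, Ids, Gm2a, Smpd1 and Atp6ap1, and the 2 were Ctsh and Ctss. Ids is listed here and below by the probe set used. By its next brightest probe set DKmix day 300 was 1.15-fold above β-catenin day 3, under the 2-fold threshold. A stricter count asked for a gap of 2-fold between the DKmix values and the day 3 values, whichever pair of arrays is compared (5.46% of all genes in either direction). By it 6 genes were higher in DKmix (14%, against 2.78% of all genes), namely Ctsd, Tpp1, Naglu, Ids, Smpd1 and Atp6ap1. Ctsh and Ctss were the 2 lower ones (4.65%, against 2.68%). Any gene that passes the stricter count also passes in both pairs, so it gives no separate support. On the hybridisation control scale the stricter count was 0 higher and 5 lower. In DKmix day 50 over eGFP day 3 alone, 12 of 43 were higher (27.9%, against 15.6%) and 9 lower (20.9%, against 15%).

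**Figure D3:**
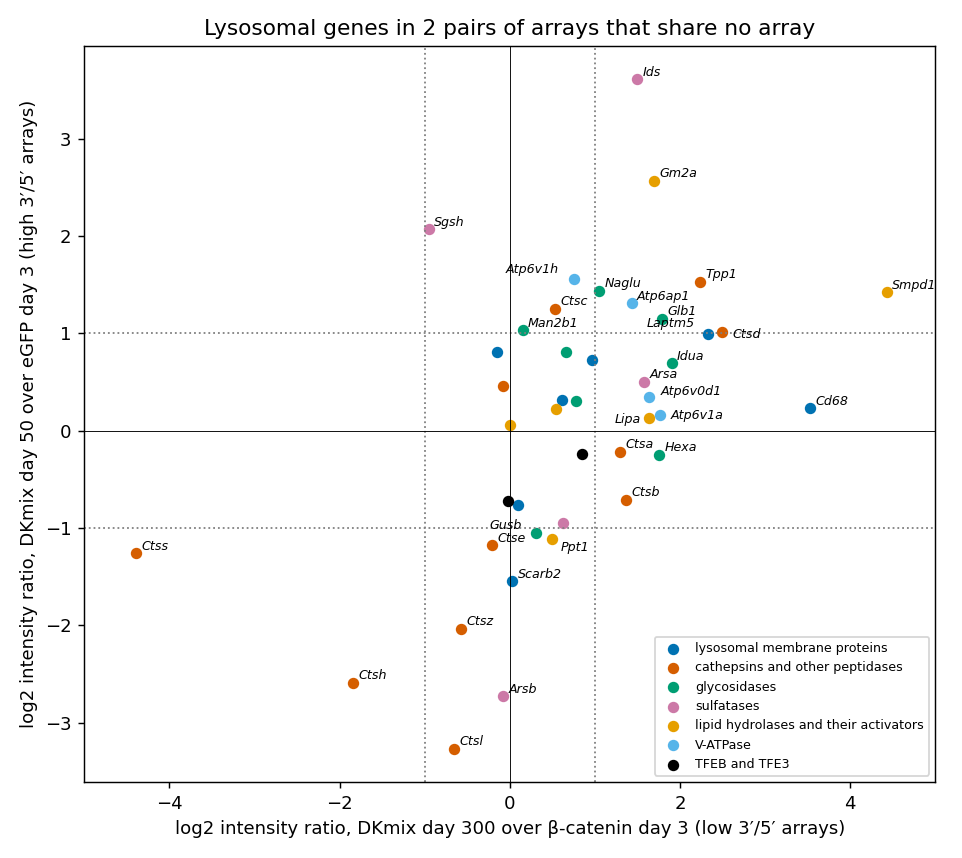
Each point is 1 lysosomal gene measured in both pairs; the horizontal axis is the log2 intensity ratio of DKmix day 300 over β-catenin day 3, the vertical axis that of DKmix day 50 over eGFP day 3, colours give the role, and dotted lines mark 2-fold. The 8 genes higher in both pairs lie in the upper right corner, Ctsh and Ctss in the lower left, and Cd68 and Hexa are high in the day 300 pair alone.

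The 3′ to 5′ ratios moved with part of these values. Over all genes, 26.4% had both DKmix day 50 and eGFP day 3 on the same side of both other arrays. In 9 of 43 lysosomal genes (20.9%, against 11.9% of all genes) both DKmix day 50 and eGFP day 3 lay below both other arrays: Cd68, Ctse, Ctsz, Gaa, Gusb, Manba, Galns, Psap and Atp6v1h. In 4 of 43 (9.3%, against 14.5%) both lay above, namely Mcoln1, Man2b1, Asah1 and Tfeb. The second probe sets of Psap and Gusb were also low on both of these arrays, while that of Ctse was highest at DKmix day 50, at 361. Where these probe sets lie along the transcripts was not examined. For Psap the second probe set gave 1753 on β-catenin day 3, 295 at DKmix day 50 and 2139 at DKmix day 300, against 289 on eGFP day 3. The 5′ Gapdh control gave 13665 on β-catenin day 3, 1312 at DKmix day 50 and 14813 at DKmix day 300, against 3470 on eGFP day 3. The part of RNA quality in the ratios of these 9 genes was not tested. Where a called gene had a second measured probe set, the direction was the same for 10 of 10 genes at DKmix day 300 (81.3% of all such genes) and for 13 of 15 at DKmix day 50 (71.7%), each against β-catenin day 3. It was the same for 12 of 15 between the DKmix arrays (63.5%) and for 6 of 7 at day 3 (68.3%). For DKmix day 50 over eGFP day 3 it was the same for 11 of 14 (74%), with Arsb, Atp6v1h and Ctse opposite.

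**Figure D4:**
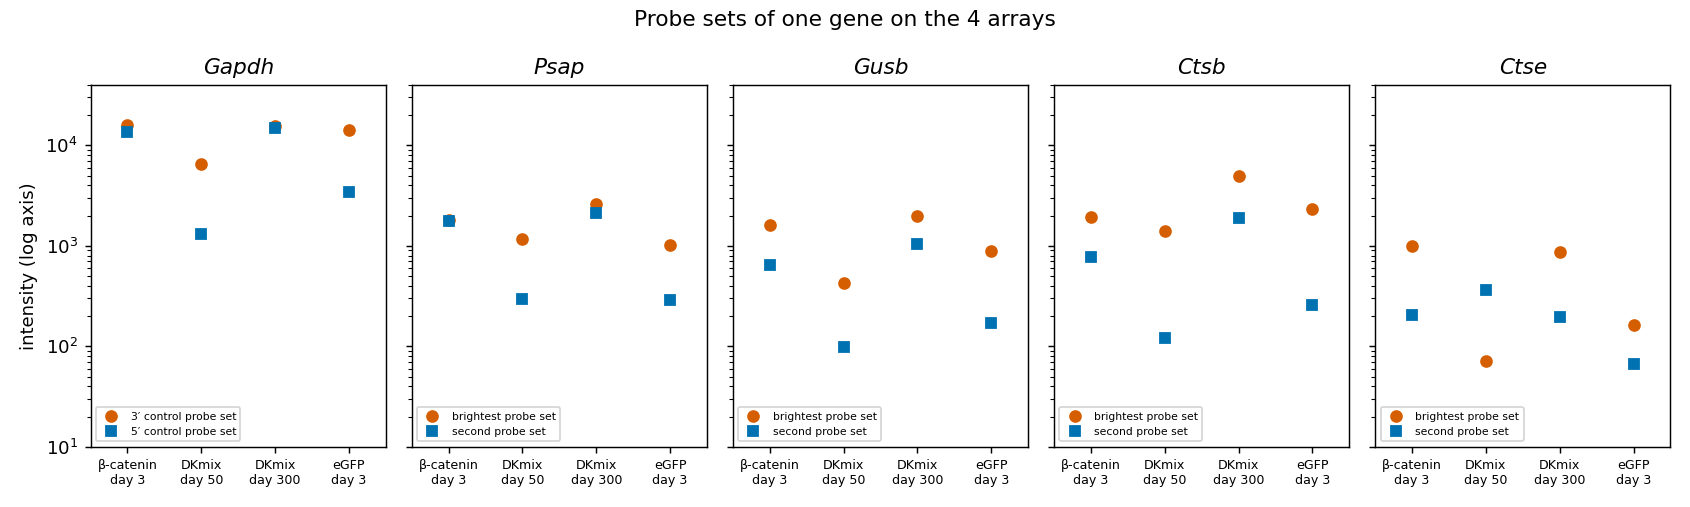
Intensity on a log axis for the 3′ and 5′ Gapdh control probe sets and for the 2 brightest probe sets of Psap, Gusb, Ctsb and Ctse on the 4 arrays. The 5′ control and the second probe sets of Psap, Gusb and Ctsb are low at DKmix day 50 and eGFP day 3, and the 2 probe sets of Ctse part at DKmix day 50.

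Promoter windows from RefSeq (GRCm38.p6), from 250 bases before to 50 after the annotated start, were found for 38 of the 44 genes. They were searched on both strands for TCACGTGA, the palindromic core of the CLEAR element bound by TFEB and its relatives, and for its 7-base part TCACGTG, which every TCACGTGA also holds. TCACGTGA was in a window of 6 of the 38 genes (15.8%), against 1.12% of 27025 genes with a window, and TCACGTG in 13 (34.2%), against 4.29%. Also searched were CACGTG, in 14 (36.8%, against 8.09%), and TCATGTG, in 5 (13.2%, against 4.31%). Since E-box sequences are known from promoters of many lysosomal genes, a higher share among genes chosen as lysosomal was to be foreseen. It is no result of these arrays. The 6 windows with TCACGTGA are shown to 30 bases past the start, with the motif in capitals, because they hold the longer motif in full. A match describes the letters of a window and is no measure of binding. They are Ctsd (chr7:142387798-142388077, minus strand), Ctsa (chr2:164833523-164833802, plus strand), Atp6v1a (chr16:44139230-44139509, minus strand), Atp6v0d1 (chr8:105566035-105566314, minus strand), Mcoln1 (chr8:3500269-3500548, plus strand) and Cln3 (chr7:126583207-126583486, minus strand).
Ctsd: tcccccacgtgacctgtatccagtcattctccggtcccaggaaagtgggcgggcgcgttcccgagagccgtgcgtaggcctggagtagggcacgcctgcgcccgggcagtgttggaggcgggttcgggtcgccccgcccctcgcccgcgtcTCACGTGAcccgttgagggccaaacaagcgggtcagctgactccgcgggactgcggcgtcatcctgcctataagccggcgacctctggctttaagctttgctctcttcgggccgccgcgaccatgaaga
Ctsa: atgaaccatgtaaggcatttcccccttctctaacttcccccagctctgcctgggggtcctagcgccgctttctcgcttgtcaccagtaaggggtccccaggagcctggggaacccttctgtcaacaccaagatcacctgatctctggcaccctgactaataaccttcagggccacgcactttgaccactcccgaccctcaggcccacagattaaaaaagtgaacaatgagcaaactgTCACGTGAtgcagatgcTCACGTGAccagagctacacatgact
Atp6v1a: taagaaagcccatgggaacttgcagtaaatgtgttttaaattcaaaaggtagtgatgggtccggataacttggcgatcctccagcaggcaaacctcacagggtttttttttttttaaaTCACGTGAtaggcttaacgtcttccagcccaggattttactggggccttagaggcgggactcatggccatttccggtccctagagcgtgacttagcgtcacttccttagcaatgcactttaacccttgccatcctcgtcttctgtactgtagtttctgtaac
Atp6v0d1: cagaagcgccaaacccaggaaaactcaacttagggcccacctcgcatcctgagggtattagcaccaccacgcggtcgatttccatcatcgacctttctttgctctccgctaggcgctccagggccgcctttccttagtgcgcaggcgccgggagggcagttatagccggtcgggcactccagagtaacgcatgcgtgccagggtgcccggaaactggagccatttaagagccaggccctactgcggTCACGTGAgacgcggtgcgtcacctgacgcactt
Mcoln1: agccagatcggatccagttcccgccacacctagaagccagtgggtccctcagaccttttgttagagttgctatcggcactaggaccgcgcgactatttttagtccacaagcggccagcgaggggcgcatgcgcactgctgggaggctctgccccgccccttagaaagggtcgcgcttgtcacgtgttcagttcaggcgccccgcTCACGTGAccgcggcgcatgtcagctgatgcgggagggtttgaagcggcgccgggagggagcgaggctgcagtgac
Cln3: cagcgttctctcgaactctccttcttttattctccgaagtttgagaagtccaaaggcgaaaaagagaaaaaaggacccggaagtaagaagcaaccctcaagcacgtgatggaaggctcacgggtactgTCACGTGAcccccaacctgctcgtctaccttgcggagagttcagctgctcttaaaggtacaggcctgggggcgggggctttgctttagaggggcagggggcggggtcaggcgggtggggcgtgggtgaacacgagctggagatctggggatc

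The motif begins 99 bases before the start in Ctsd, 132 in Atp6v1a, 4 in Atp6v0d1, 46 in Mcoln1 and 122 in Cln3. Ctsa holds 2 copies, the first 13 bases before the start. Of these 6 genes, Ctsd, Ctsa, Atp6v1a and Atp6v0d1 were at least 2-fold higher on DKmix day 300 than on β-catenin day 3 by the probe set used. Mcoln1 and Cln3 were not, and the second probe set of Atp6v1a was under 2-fold. In that comparison 14% of all measured genes were higher and 14.4% lower. Of the 13 genes with TCACGTG, 7 were higher and 0 lower, with log2 ratios from -0.95 to 2.49 and a median of 1.05. Of the 24 measured genes whose window lacks it, 10 were higher and 1 lower, with ratios from -4.39 to 4.43 and a median of 0.76. At DKmix day 50 against β-catenin day 3, 16.1% of all measured genes were higher and 15.7% lower. The counts there were 4 higher and 0 lower with TCACGTG, against 9 higher and 7 lower without. Smpd1, Gm2a, Ids and Laptm5, among the genes with the largest ratios, are in the group without it.

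Further genes of the pathway were counted in 6 lists. Of 141 further names, 127 had a probe set. On DKmix day 300 over β-catenin day 3, 24 of 117 measured were higher (20.5%, against 14% of all genes) and 15 lower (12.8%, against 14.4%), with a median log2 ratio of 0.24. On DKmix day 50 over β-catenin day 3, 26 of 116 were higher (22.4%, against 16.1% of all genes) and 17 lower (14.7%, against 15.7%), with a median of 0.33. Between the DKmix arrays, 16 of 115 were higher at day 300 (13.9%, against 15.1% of all genes) and 22 lower (19.1%, against 15.9%). Both shares were near those of all genes, and the median was 0.01, beside -0.14 for all genes. The list counts that follow are for DKmix day 300 over β-catenin day 3, where 14% of all genes were higher and 14.4% lower. Of 22 other hydrolases, 8 were higher, such as Gla, α-galactosidase, which gave 404 on β-catenin day 3, 149 at DKmix day 50 and 1149 at DKmix day 300, against 357 on eGFP day 3. Of the 3 lower, Smpdl3b, a sphingomyelinase-like phosphodiesterase, was at least 13.7-fold and Scpep1, a carboxypeptidase, 4.00-fold below β-catenin day 3. Among 13 further V-ATPase subunits, 3 were higher, among them Atp6v0a2 (4.41-fold), and Tcirg1, the a3 subunit of osteoclasts and macrophages, was lower (2.57-fold).

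Of 23 other membrane proteins and transporters, 6 were higher and 4 lower, and Slc15a3, a histidine and peptide transporter, was under the floor on both DKmix arrays, at least 17.1-fold below β-catenin day 3. Of 31 sorting genes, 4 were higher and 4 lower (12.9% in each direction, near the 14% and 14.4% of all genes), with Sort1, the sortilin receptor, at 287 on β-catenin day 3, 66.3 at DKmix day 50 and 67.9 at DKmix day 300, against 1387 on eGFP day 3. Of 3 measured cathepsin inhibitors, Cst7, cystatin F, was 5.82-fold higher and the other 2 passed 2-fold in neither direction. Cst7 gave 700 on β-catenin day 3, 2235 at DKmix day 50 and 4069 at DKmix day 300, against 820 on eGFP day 3. Of 25 regulators and MiT relatives, 2 were higher and 3 lower, with Mitf 12.3-fold higher and Tfec and Gpnmb at least 4.09-fold and 6.68-fold lower.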

How the data were processed

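RNA of 4 samples was measured on Affymetrix arrays, 1 array per group, and biotin-labelled cRNA had been made from 6 microg total RNA per the labels' protocols. Per the submitters' processing notes, the deposited intensities come from MAS5, and their values are linear. No version, detection call or genome build was stated in the sources used. From the values, each array had the same trimmed mean, so no further scaling was applied. The number of arrays limits the precision.

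Gene symbols came from the platform's annotation table: 34945 of 45101 probe sets had 1 symbol and were no control. A gene was read by the probe set brightest on average (log2), and all 44 symbols matched RefSeq by Entrez identifier. Ratios, the floor and the 2-fold threshold were computed in Python 3.11.15 with pandas 2.3.3, and the ratio step was tested on simulated data. The members, lists, markers and rules were chosen with earlier results of these data known. Genes given with the value on every array were those past 2-fold in any of the 4 comparisons with a brighter intensity of at least 193.2, 4 times the floor, with Tfeb and Tfe3, and up to 4 genes of each further list with the largest ratios. Lamp1, Idua, the other probe sets and the single marker genes given with values lie outside that rule and were chosen after their values were seen. Alternatives were quantile normalization, lowess centring (fraction 0.3), scaling on the hybridisation controls, a floor at percentile 25 (11.0) or 75 (134.6), the mean of all probe sets, the second brightest probe set, no _x_at or _s_at probe sets, and a 3-fold threshold.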

Additional observations from a re-analysis of the deposited data

Results flagged for a closer look

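Cd68 was singled out because its DKmix arrays lay on opposite sides of β-catenin day 3, with log2 ratios of -1.29 at DKmix day 50 and 3.53 at DKmix day 300. The difference was not tested, as each group held 1 array and the gene has 1 probe set here. Cd68 is also among the 9 genes that were lowest on the 2 arrays with high 3′ to 5′ ratios, and the part of RNA quality was not tested.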

How the results depend on the processing

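No paired analysis was possible because each group held 1 array. Under quantile normalization and lowess centring the counts of higher and lower genes stayed within 1.5 times those given, for all comparisons. Scaling on the hybridisation controls moved the most values. It gave 10 higher, 1 lower and a median log2 ratio of 0.26 for β-catenin over eGFP at day 3, 5 higher, 16 lower and a median of -0.67 for DKmix day 50 over β-catenin day 3, 6 higher, 11 lower and -0.28 for DKmix day 300 over β-catenin day 3, and 0 higher and 5 lower for both DKmix against both day 3 arrays. The higher floor left 1 gene lower in both DKmix arrays. The mean of all probe sets gave a day 3 median of 0.06, 3 lower between the DKmix arrays and 1 lower in both DKmix arrays. The second brightest probe set, measured for 22 to 24 genes, gave 2 lower and a median of 0.22 at day 3, 7 higher, 6 lower and 0.60 at DKmix day 50, 5 higher and 0 lower at DKmix day 300, 9 higher and 0.46 between the DKmix arrays, and 1 higher and 0 lower in both DKmix arrays. Fewer genes were measured there. Without _x_at and _s_at probe sets the medians were 0.01 at day 3 and 0.65 at DKmix day 300. At 3-fold there were 0 lower at day 3, 7 higher at DKmix day 50, 10 higher and 3 lower between the DKmix arrays, and 0 in either direction in both DKmix arrays. The pairs of like Gapdh ratio (less alike by Actb in the pair of DKmix day 50 and eGFP day 3), an alternative chosen after seeing the data, gave 8 higher and 2 lower.

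Of the values for single genes and roles, 1087 of 1303 moved by less than the probe set SD and 206 by more. For roles, that SD was taken over the square root of the gene number. The other 10 had passed 2-fold and turned sign. Values under 2-fold that changed sign were counted only by the size of their move. With the second brightest probe set, Ctse turned to log2 ratios of 0.83 at DKmix day 50 over β-catenin day 3 and -0.87 between the DKmix arrays, as it did without _x_at and _s_at probe sets (0.83 and -0.87). Arsb turned to 1.52 and -1.7 in the same 2 comparisons, Smpd1 to -0.1 between the DKmix arrays and Atp6v1h to -0.05 at day 3. With the mean of all probe sets, Gm2a turned to 0.84 at day 3 and Ctsa to -0.37 at DKmix day 300 over β-catenin day 3. The cause was not tested.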

Other observations

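Laptm5 was read by 3 bright probe sets that agree on DKmix above β-catenin day 3 and disagree on the order of the DKmix arrays. The one used above gave 8121 at DKmix day 50 and 10041 on DKmix day 300, another gave 14209 and 3906, and the last 1917 and 7647, in the same order of arrays. On β-catenin day 3 they gave 2000, 1781 and 768.

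Sort1 and Smpdl3a were highest on eGFP day 3. Smpdl3a, a phosphodiesterase related to acid sphingomyelinase, gave 367 on β-catenin day 3, 55.2 at DKmix day 50 and 53.0 at DKmix day 300, against 2061 on eGFP day 3, while Smpd1 itself was highest on DKmix day 300. Stfa2l1, a stefin gene, gave 6.2 on β-catenin day 3, 9.0 at DKmix day 50 and 8.6 at DKmix day 300, against 848 on eGFP day 3, the array on which the 12 neutrophil markers summed to 103466, against 13432 on β-catenin day 3 and 739 and 225 on the DKmix arrays. The part of neutrophils in the Stfa2l1 value was not tested.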
